A study of Homo sapiens with 6 samples.

Results

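The collagen and laminin genes and 4 further genes of the basement membrane were examined in H1299 cells, an established human lung carcinoma line. Members were the protein-coding rows of the count table with a collagen symbol (COL, a number, A and a number), a laminin chain symbol (LAMA, LAMB or LAMC with a number), or the symbol NID1, NID2, HSPG2 or AGRN. There were 60 of them, 44 collagens, 12 laminin chains and those 4, among 19865 protein-coding genes and 58336 rows in all. The rule used no expression value, though the members were chosen with earlier results of these data known. Each was placed by textbook knowledge in 1 of 12 classes.

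Collagens are trimers of alpha chains wound into a triple helix. Fibrillar collagens assemble into the banded fibres of connective tissue and are made mainly by fibroblasts, while type IV collagen forms the sheet-like network of basement membranes, the thin matrix under epithelia and around vessels. Laminins are cross-shaped trimers of an alpha, a beta and a gamma chain that start basement membrane assembly and bind integrins on the cell, and nidogens, perlecan (HSPG2) and agrin (AGRN) link the laminin and collagen networks.

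RNA sequencing compared 3 libraries of H1299 cells with a CCNB1 knockdown, made with a short hairpin RNA against the gene of cyclin B1, with 3 libraries of H1299 cells with a mock vector, whose genotype is labelled WT. Both groups had been grown in 10% serum and were stable transfectants, selected with 1 µg/ml puromycin at 14 days past confluence. The labels name lung adenocarcinoma as tissue and cell type and call the cells mesenchymal. The hairpin's sequence, the number of hairpins and whether the lines are clones or pools are not given in the sources used here, nor is it stated whether each library had a culture of its own. The p-values therefore set the group difference against the spread between these libraries. That spread may be technical, so they may not hold for independent cultures.

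Libraries held 28122665 to 30332989 counts. Levels are in CPM, a count scaled to library size, or in FPKM, which also divides by gene length and is the scale used here between genes. CCNB1 itself was at 19.9, 29.9 and 16.1 CPM in knockdown libraries 1, 2 and 3, against 322.6, 304.9 and 294 CPM in mock libraries 1, 2 and 3, a log2 fold change of -3.81 (SE 0.22, adjusted p = 0.000215 in edgeR). Of the lung adenocarcinoma and alveolar markers, 2 of 12 reached 1 CPM, SFTPA1, SFTPA2 and SLC34A2 were at 0 counts in all libraries, and their sum was 7.52 to 8.31 CPM in knockdown and 6.02 to 6.97 CPM in mock libraries. All 8 mesenchymal markers reached 1 CPM, with means over the 6 libraries from 1.14 to 2760 CPM. The lung epithelial markers that the labelled tissue would carry were thus low, with means of at most 3.85 CPM. The mesenchymal ones were all above the threshold, the lowest only just. Of the fibroblast markers 3 of 12 reached 1 CPM, with sums of 34.1 to 41.1 CPM in knockdown and 38.5 to 52.6 CPM in mock libraries. These came mostly from FBLN1, and PDPN was at 0 counts. Of the endothelial markers 2 of 8 did, with sums of 3.67 to 6.24 CPM in knockdown and 3.05 to 4.19 CPM in mock libraries. Of the immune markers 1 of 10 did, with sums of 3.07 to 4.47 CPM in knockdown and 2.22 to 4.02 CPM in mock libraries, and PTPRC, CD3E and MS4A1 at 0 counts.

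H1299 cells expressed a laminin-rich and fibrillar-poor subset of the family. Of the 60 members, 29 had a mean of at least 1 CPM over the 6 libraries, made up of 15 of 44 collagens, 10 of 12 laminin chains, and NID1, NID2, HSPG2 and AGRN. Among the fibrillar collagens, 4 of 11 were expressed (COL27A1, COL11A1, COL5A2 and COL1A1), and among the collagens of basement membranes 4 of 8 (COL18A1, COL4A5, COL4A6 and COL4A4). The other expressed collagens were COL6A1 and COL6A2, which form beaded microfibrils, COL12A1 and COL16A1, which are FACIT collagens that decorate fibrils, the transmembrane collagens COL13A1 and COL17A1, and COL7A1, which forms the anchoring fibrils of skin. No network collagen (COL8A1, COL8A2, COL10A1) reached the threshold.

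Several well-known partner chains had next to no counts. COL1A2, the partner of COL1A1 in type I collagen, had 2 counts in the 3 knockdown libraries together and 1 count in the 3 mock libraries. COL3A1, the type III collagen chain of soft tissue, had 5 counts in knockdown and 4 counts in mock libraries, and COL6A3, which joins COL6A1 and COL6A2 in the usual type VI trimer, had 2 counts in knockdown and 4 counts in mock libraries. COL6A5 had 0 counts in every library, which allows up to 0.106 CPM (3 counts in a library). The 2 laminin chains below the threshold were LAMA1 (0.297 CPM) and LAMB4 (0.0389 CPM, means of 6 libraries). The members nearest to the threshold were COL1A1 at 1.05 and COL4A4 at 1.28 CPM above it, and COL25A1 at 0.96, COL11A2 at 0.817, COL9A3 at 0.786 and COL4A3 at 0.775 CPM below it. The remaining members not expressed lay between 0 and 0.336 CPM, the highest of them COL8A1.

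Type IV collagen genes come in pairs that face away from each other across a shared promoter region, and H1299 cells expressed the pair on the X chromosome rather than the pair most widely used in basement membranes. COL4A1 and COL4A2, the usual type IV chains, had 13 and 0 counts in the knockdown libraries together, against 3 and 3 counts in the mock libraries together. COL4A5 and COL4A6 on the X chromosome, whose annotated starts lie 347 bases apart, averaged 10.7 and 3.33 CPM over all libraries. COL4A3 and COL4A4 on chromosome 2, whose starts lie 112 bases apart, stood on either side of the threshold. In the promoter windows of RefSeq (250 bases before to 50 after the start), COL4A1 and COL4A2 shared 226 of 300 bases, COL4A5 and COL4A6 shared 121, and COL4A3 and COL4A4 shared 82.

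To set the pair with next to no counts beside the expressed one, and beside the 2 collagens described in most detail further on, 4 promoter windows of the RefSeq table (GRCh38.p14) are printed 5′ to 3′ on the gene's strand, with each CG dinucleotide in capitals. They are COL4A2 (chr13:110307034-110307333, plus strand, 3 counts in all), COL4A5 (chrX:108439588-108439887, plus strand, expressed), COL18A1 (chr21:45404915-45405214, plus strand, the basement membrane collagen with the highest level) and COL12A1 (chr6:75206004-75206303, minus strand, the expressed collagen above 5 CPM with higher values in the knockdown).
COL4A2: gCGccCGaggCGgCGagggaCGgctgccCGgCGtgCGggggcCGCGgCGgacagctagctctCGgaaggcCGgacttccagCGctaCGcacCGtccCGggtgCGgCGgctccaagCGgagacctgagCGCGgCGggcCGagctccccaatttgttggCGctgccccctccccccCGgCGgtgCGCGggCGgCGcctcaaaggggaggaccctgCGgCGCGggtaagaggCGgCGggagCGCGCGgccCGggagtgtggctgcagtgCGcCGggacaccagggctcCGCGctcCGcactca
COL4A5: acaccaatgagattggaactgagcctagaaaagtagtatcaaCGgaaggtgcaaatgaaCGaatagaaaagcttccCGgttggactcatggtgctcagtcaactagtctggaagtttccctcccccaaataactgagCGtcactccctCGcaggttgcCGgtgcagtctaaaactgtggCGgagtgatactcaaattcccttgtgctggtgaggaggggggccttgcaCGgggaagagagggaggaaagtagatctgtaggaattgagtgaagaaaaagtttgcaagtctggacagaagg
COL18A1: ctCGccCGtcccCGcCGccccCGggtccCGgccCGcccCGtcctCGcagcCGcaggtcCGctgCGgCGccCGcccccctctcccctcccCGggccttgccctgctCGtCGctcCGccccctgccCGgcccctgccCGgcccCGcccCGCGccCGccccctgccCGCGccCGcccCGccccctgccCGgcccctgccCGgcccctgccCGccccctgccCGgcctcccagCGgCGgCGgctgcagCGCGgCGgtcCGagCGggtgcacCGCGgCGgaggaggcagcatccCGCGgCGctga
COL12A1: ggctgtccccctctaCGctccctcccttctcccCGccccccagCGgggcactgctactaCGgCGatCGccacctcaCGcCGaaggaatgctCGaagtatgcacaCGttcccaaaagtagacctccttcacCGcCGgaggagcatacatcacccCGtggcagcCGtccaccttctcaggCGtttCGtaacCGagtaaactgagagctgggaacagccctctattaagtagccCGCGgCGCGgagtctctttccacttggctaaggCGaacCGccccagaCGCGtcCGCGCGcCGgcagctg

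The window of COL4A2, a gene with next to no counts, held 45 CG and 1 match to the GC box GGGCGG (either strand, overlapping matches counted). That of COL4A5, which was expressed, held 8 CG and 0 matches. COL18A1 held 46 CG and 9 matches, and COL12A1 29 CG and 2 matches. The table held a window for 44 of the 60 members. The median was 22 CG for the 23 expressed members with a window, 24 CG for the 21 members not expressed, and 14 CG over all 27305 windows. A GC box match was present in 69.6% of the windows of expressed members, 52.4% of those of members not expressed and 44.6% of all windows. The medians of members above and below the threshold were thus close together and both above that of all windows. A match is a description of the letters and not a site.

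Per unit of length, laminin chains led the family. The members with the highest mean FPKM over the 6 libraries included LAMC1 (24.3 FPKM), LAMB3 (24.1), LAMB1 (19.5), COL6A2 (17.9), LAMB2 (13.9), AGRN (12.5), COL6A1 (11.4), LAMA5 (8.07), HSPG2 (7.46), NID1 (6.76) and LAMA2 (4.72). The 12 laminin chains together made up 59.37 ± 0.4999% of the family's summed FPKM in knockdown libraries and 60.7 ± 1.97% in mock libraries (SD, n = 3 each). Beaded filament collagens held 15.3 ± 2.35% in knockdown and 16.3 ± 1.03% in mock libraries. The fibrillar collagens held 1.03 ± 0.0881% in knockdown and 0.817 ± 0.0812% in mock libraries, and the highest of them, COL27A1, was at 0.890 FPKM. The plot of FPKM by library shows the span of the expressed members, down to COL1A1 at 0.108 FPKM.

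**Figure D1:**
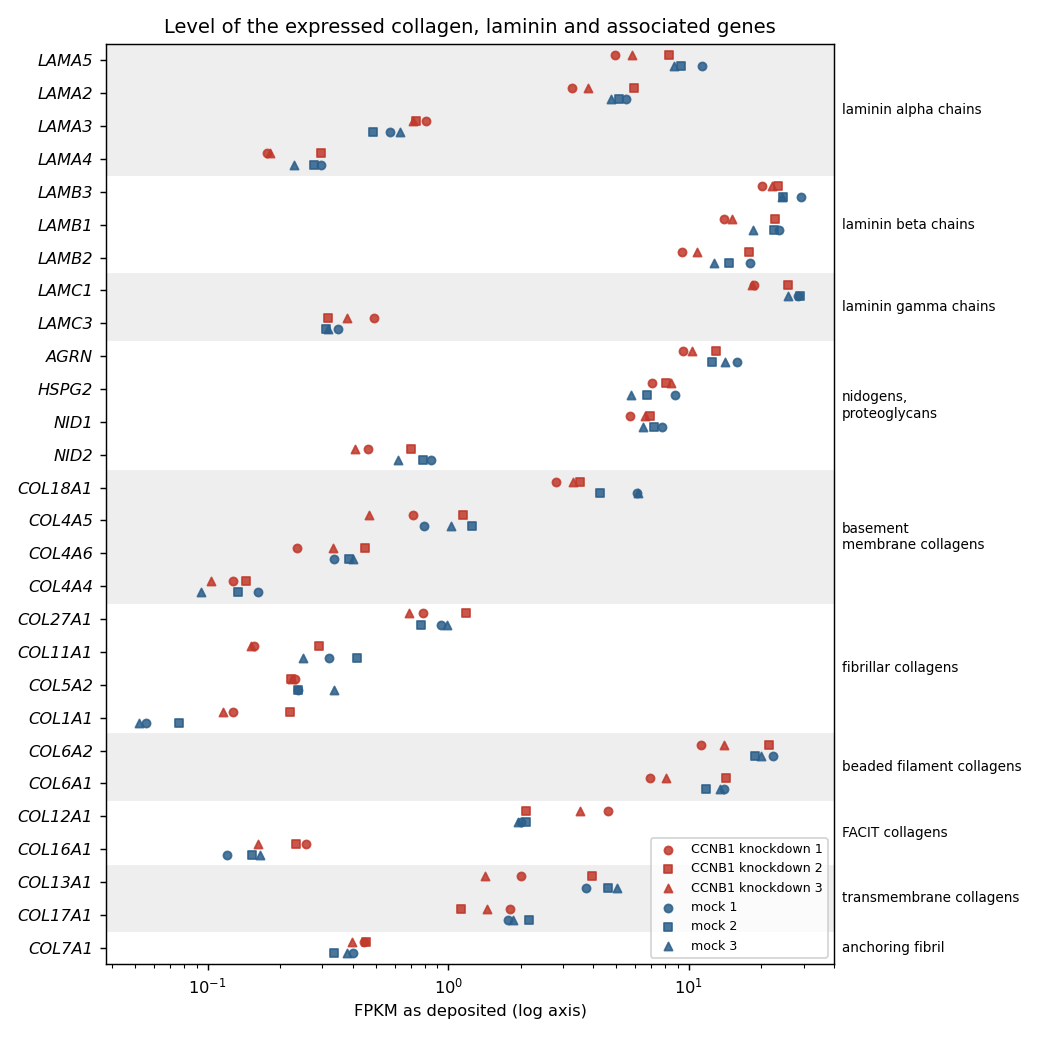
FPKM (log axis) of expressed members in each library, grouped by class, with the CCNB1 knockdown libraries in red and the mock libraries in blue. Circles, squares and triangles are libraries 1, 2 and 3 of a group. Laminin beta and gamma chains reach 24.3 FPKM (LAMC1, mean of 6 libraries), while COL1A1, at the low end, averaged 0.108 FPKM.

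Knockdown against mock, no member passed the threshold. In edgeR's quasi-likelihood test, 0 members had an adjusted p under 0.05, against 4 of 17349 genes tested, or 0.0231%. The lowest adjusted p of a member was 0.115 (COL18A1). The test covered 35 of the 60 members, all 29 expressed ones and 6 below 1 CPM, since a filter on low counts left out the other 25. Of those 6, COL11A2 (91 counts in knockdown and 53 in mock libraries), COL9A3 (91 in knockdown, 47 in mock), COL4A3 (85 in knockdown, 51 in mock) and COL21A1 (31 in knockdown, 24 in mock) had more counts in the knockdown. COL25A1 (66 in knockdown, 101 in mock) and COL8A1 (22 in knockdown, 36 in mock) had fewer. Of the expressed members, 22 had a log2 fold change below 0, with a median of -0.31, against 46.7% of all genes tested and their median of 0.02. An unadjusted p under 0.05 was found for 9 expressed members on the lower side, where 6.88% of all genes lay, and for 3 on the higher side, where 8.14% lay. The libraries of the groups did not overlap for 7 expressed members on the lower side (8.84% of all genes) and for 3 on the higher side (10.9% of all genes). COL1A1 is in both counts on the higher side. It reached 1 CPM only through the knockdown libraries, so its place in these counts depends on its direction. DESeq2, tried as an alternative, called 3 members lower, COL18A1 and LAMA5 among them, with 2.05% of all genes called lower.

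Knockdown library 2 stood apart from the other knockdown libraries in this family, and also over the whole table by the count of genes called without it. Relative to the mock mean, the median expressed member was at -0.66, 0.05 and -0.44 on the log2 scale in knockdown libraries 1, 2 and 3, while the median of all genes tested was 0.02 in each. In library 1, 21 of the 29 lay below all mock libraries (32.2% of all genes tested), in library 2 7 did (27.3%) and in library 3 20 did (32.2%), so that library 2 was near the share of all genes. Library 2 was the highest of the knockdown libraries for 22 of the 29. Among the knockdown libraries CCNB1 was highest in library 2, at 9.72% of the mock mean, against 6.48% in library 1 and 5.24% in library 3. Whether the level of CCNB1 has a part in the family's values was not tested. When library 2 was left out, edgeR called 14 members lower, with 7.58% of all genes called lower, and 1 member higher, COL12A1, with 6.24% of all genes called higher. Leaving out any other single library called 0 members. Over the whole table edgeR called 2453 genes without library 2, against 1 without any other single library. Library 2 was thus not set apart in this family alone. Each library was left out in turn. Library 2 was singled out here with the values of these same members seen, so the calls without it are no independent support. In bulk RNA, fewer cells of a kind and less RNA per cell cannot be told apart. VIM, a mesenchymal intermediate filament gene, split the libraries likewise, at 1741, 3331 and 1878 CPM in knockdown libraries 1, 2 and 3. In mock libraries it was at 3181, 3283 and 3145 CPM. It was picked from the 8 mesenchymal markers after its values were seen. Of these 8, 6 had a log2 fold change below 0 and 2 above. Without library 2, edgeR called 1 of the 8 lower and 0 higher. The part of VIM in the results was not tested.

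**Figure D2:**
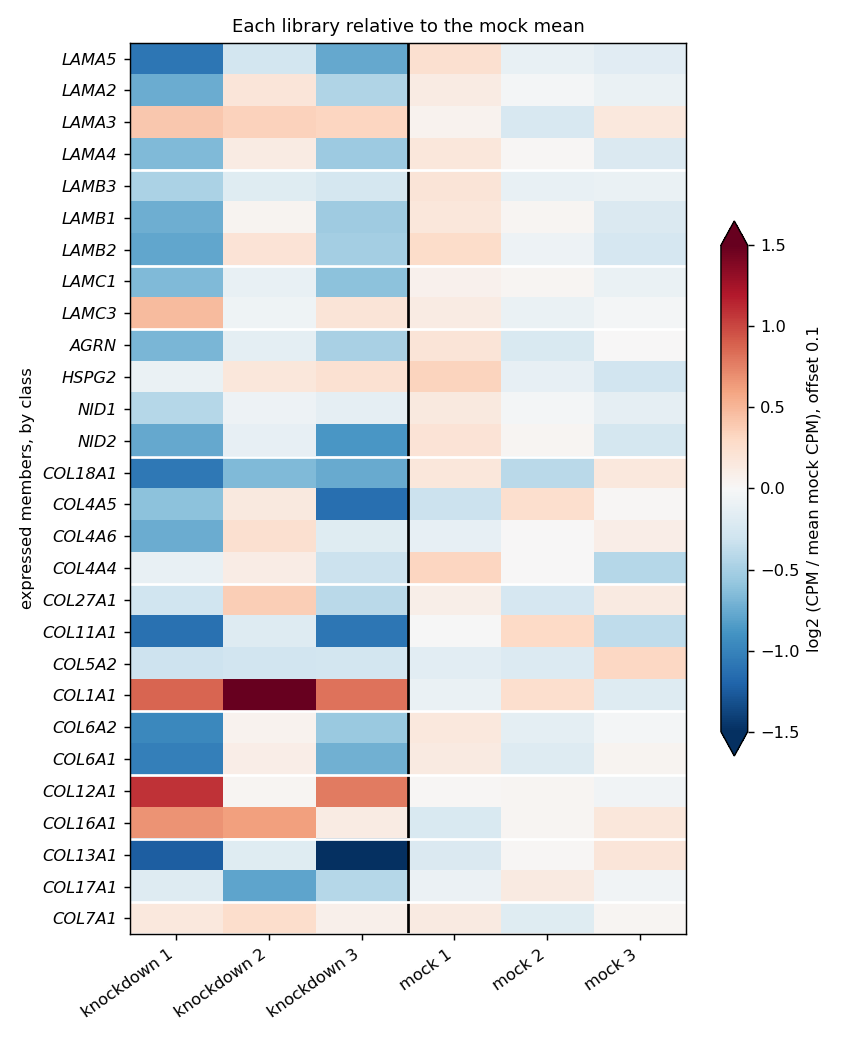
Heat map of log2 (CPM over the mean mock CPM), with an offset of 0.1 CPM, for expressed members (rows, by class) in knockdown libraries 1 to 3 and mock libraries 1 to 3 (columns). Most rows are blue in knockdown libraries 1 and 3 and near white in knockdown library 2. Over all 29 expressed members the medians were -0.66, 0.05 and -0.44 in knockdown libraries 1, 2 and 3.

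Among the laminin alpha chains, LAMA5 had the highest level per length, and LAMA3 was the one with a log2 fold change above 0. LAMA5 (ENSG00000130702, chromosome 20 from 62307955 to 62367312, minus strand, GRCh38) encodes the alpha chain most common in adult basement membranes. It was at 67.2, 118 and 83.7 CPM in knockdown libraries 1, 2 and 3, against 169, 132 and 127 CPM in mock libraries. All knockdown libraries lay below all mock libraries, library 2 the closest to them. The log2 fold change was -0.67 (SE 0.21), and the adjusted p was 0.184 in edgeR, 0.0438 in DESeq2 and 0.00611 in edgeR without knockdown library 2. LAMA2, the alpha chain of muscle and nerve basement membranes, was at 32.3, 61.2 and 39.6 CPM in knockdown libraries, against 58.9, 52.8 and 50.3 CPM in mock libraries. Here knockdown library 2 was the highest of all 6, and libraries 1 and 3 were the lowest (log2 fold change -0.28, SE 0.21, adjusted p = 0.559 in edgeR, and 0.0188 without library 2). LAMA3, the alpha chain of the epithelial laminin in the hemidesmosome, was at 10.3, 9.89 and 9.72 CPM in knockdown libraries, against 8.06, 6.53 and 8.69 CPM in mock libraries. The groups did not overlap and the 3 knockdown libraries lay close together (log2 fold change 0.36, SE 0.16, adjusted p = 0.328 in edgeR). LAMA4, a chain of vessel and fat basement membranes, averaged 2.496 ± 0.811 CPM in knockdown and 3.14 ± 0.428 CPM in mock libraries (SD, n = 3 each).

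All 3 expressed beta chains had log2 fold changes below 0, between -0.37 and -0.30, and none passed. LAMB3, the beta chain that pairs with LAMA3 in epithelia, was at 90.2, 110.4 and 104 CPM in knockdown libraries, against 143, 115 and 117 CPM in mock libraries, without overlap (adjusted p = 0.347 in edgeR). LAMB1, the beta chain of most embryonic and many adult laminins, was at 108, 185 and 124 CPM in knockdown libraries, against 201, 183 and 154 CPM in mock libraries. LAMB2, a beta chain of kidney, muscle and vessel basement membranes, was at 61.3, 122 and 74.3 CPM in knockdown libraries, against 128, 100.5 and 89.0 CPM in mock libraries. For LAMB1 and LAMB2 alike, knockdown library 2 lay within the mock range and knockdown libraries 1 and 3 below it. Without library 2 edgeR called both, LAMB1 with a log2 fold change of -0.63 (adjusted p = 0.0167) and LAMB2 with one of -0.64 (adjusted p = 0.0311).

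The gamma chain LAMC1, the family member with the highest level per length, was lower in each knockdown library than in any mock library. LAMC1 (ENSG00000135862, chromosome 1 from 183023460 to 183145592, plus strand, GRCh38), the gamma chain of most laminins, was at 149, 218 and 154 CPM in knockdown libraries, against 248, 241 and 221 CPM in mock libraries. Knockdown library 2 lay just below mock library 3 (log2 fold change -0.45, SE 0.16, adjusted p = 0.242 in edgeR, and 0.0051 without library 2). LAMC3, a minor gamma chain, averaged 2.94 ± 0.571 CPM in knockdown and 2.51 ± 0.213 CPM in mock libraries (SD, n = 3 each).

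LAMA3 and LAMB3, which assemble into the same epithelial laminin, were far from equal, as the plot of laminin chains by library shows. LAMB3 stood at 29.4 ± 3.74 times LAMA3 in FPKM in knockdown libraries and at 47.0 ± 7.12 times in mock libraries (SD, n = 3 each). The ratios ran from 25.2 to 32.2 in knockdown and from 38.7 to 51.2 in mock libraries, so the groups did not overlap. That separation adds nothing new, since it follows from LAMB3 being lower and LAMA3 higher in the knockdown, each without overlap. LAMB1 over LAMC1, the pair shared by several widespread laminins, differed less, at 0.819 ± 0.0642 in knockdown and 0.780 ± 0.0597 in mock libraries, and here the groups overlapped. These ratios carry no test. The deposited length of LAMA3 does not match that of the annotation used here, so the size of its FPKM ratio is uncertain. In CPM, LAMB3 averaged 101.6 in knockdown and 125 in mock libraries. LAMA3 averaged 9.98 CPM in knockdown and 7.76 CPM in mock libraries.

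**Figure D3:**
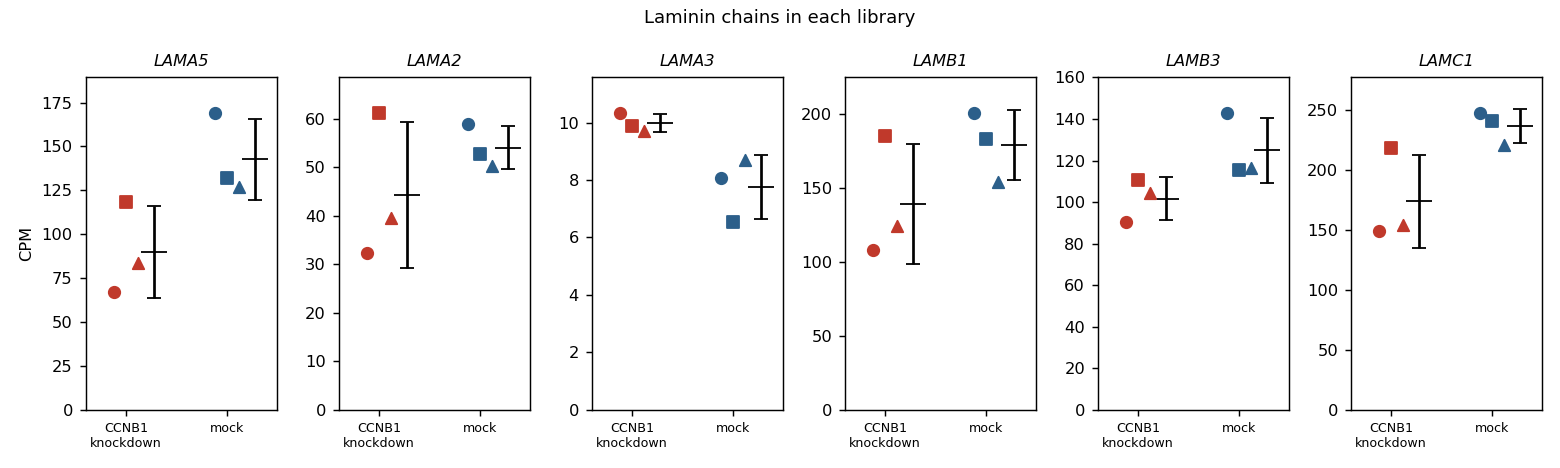
CPM of 6 laminin chains in each library, with knockdown libraries in red at the left and mock libraries in blue at the right of each panel. Circles, squares and triangles are libraries 1, 2 and 3, and the black bar is the mean ± SD (n = 3). Panels have their own vertical axes from 0. LAMA5 lies between 67.2 and 118 CPM in knockdown and between 127 and 169 CPM in mock libraries, and LAMA3 lies higher in the knockdown libraries.

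Of the 12 members highest by FPKM, the linkers HSPG2 and NID1 had the log2 fold changes nearest to 0. HSPG2, the gene of perlecan, was at 121, 146 and 153 CPM in knockdown libraries, against 165, 120.1 and 107 CPM in mock libraries, with overlap (log2 fold change 0.10, SE 0.18, adjusted p = 0.818 in edgeR, and -0.02 on the log2 scale without mock library 3). Its deposited length does not match that of the annotation used here, in which 11.7% of its exon bases are shared with LDLRAD2, so its counts are uncertain. NID1, the gene of nidogen-1, was at 31.6, 40.4 and 38.8 CPM in knockdown libraries, against 47.4, 41.9 and 38.7 CPM in mock libraries, where knockdown libraries 2 and 3 lay inside the mock range. AGRN, the gene of agrin, which also organizes the neuromuscular junction, was at 96.6, 140.2 and 111 CPM in knockdown libraries, against 178, 133 and 156 CPM in mock libraries. Knockdown library 2 overlapped the mock range and libraries 1 and 3 did not (log2 fold change -0.42, SE 0.17, adjusted p = 0.279 in edgeR, and 0.0251 without library 2). NID2, the gene of nidogen-2, was at 2.82, 4.49 and 2.62 CPM in knockdown libraries, against 5.63, 4.98 and 4.05 CPM in mock libraries, with the same pattern (adjusted p = 0.324 in edgeR, and 0.0259 without library 2). NID2 shares 30% of its exon bases with RTRAF, a neighbour on chromosome 14, so its counts are uncertain too.

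COL18A1 (ENSG00000182871, chromosome 21 from 45405137 to 45513720, plus strand, GRCh38), whose promoter window is printed above, encodes type XVIII collagen, a basement membrane proteoglycan whose C-terminal fragment is endostatin. It was at 22.7, 30.1 and 28.2 CPM in knockdown libraries, against 53.9, 36.1 and 53.4 CPM in mock libraries. Every knockdown library lay below every mock library, and mock library 2 was the lowest of the mock libraries. The log2 fold change was -0.82 (SE 0.18), and the adjusted p was 0.115 in edgeR, 0.00276 in DESeq2 and 0.0144 in edgeR without knockdown library 2. Of its exon bases 16.4% are shared with SLC19A1, and no source used here gives the strand setting of the counting, which leaves its counts uncertain. COL4A5 averaged 9.09 ± 4.15 CPM in knockdown and 12.3 ± 2.45 CPM in mock libraries (SD, n = 3 each), where the log2 fold change was -0.44 (SE 0.29, adjusted p = 0.508 in edgeR, and 0.0296 without knockdown library 2). Its neighbour COL4A6 averaged 3.12 ± 1.07 CPM in knockdown and 3.54 ± 0.286 CPM in mock libraries, and COL4A4 averaged 1.24 ± 0.204 CPM in knockdown and 1.33 ± 0.360 CPM in mock libraries.

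The log2 fold changes of the 4 expressed fibrillar collagens ranged from -0.77 to 1.29, and none passed. COL11A1, a chain of cartilage fibrils that tumours and their stroma can also express, was at 1.35, 2.65 and 1.38 CPM in knockdown libraries, against 3.03, 3.78 and 2.32 CPM in mock libraries. Knockdown libraries 1 and 3 lay below all mock libraries and library 2 within their range (log2 fold change -0.77, SE 0.31, adjusted p = 0.294 in edgeR, and 0.021 without library 2). COL1A1 (ENSG00000108821, chromosome 17 from 50183289 to 50201632, minus strand, GRCh38), the main chain of type I collagen, was at 1.19, 2.15 and 1.14 CPM in knockdown libraries, against 0.563, 0.741 and 0.519 CPM in mock libraries. All knockdown libraries lay above all mock libraries, library 2 the highest (log2 fold change 1.29, SE 0.35, adjusted p = 0.153 in edgeR). COL27A1, a fibrillar collagen of cartilage, averaged 12.2 ± 3.78 CPM in knockdown and 12.8 ± 1.803 CPM in mock libraries, and COL5A2, a chain of the type V collagen that sets fibril width, averaged 1.59 ± 0.0239 CPM in knockdown and 1.97 ± 0.423 CPM in mock libraries (SD, n = 3 each). The log2 fold change of COL27A1, -0.07, turned positive without knockdown library 1, knockdown library 3 or mock library 3, to at most 0.07.

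Set against each other by class, the 8 basement membrane collagens summed to more FPKM than the 11 fibrillar collagens in every library. The basement membrane sum was 4.58 ± 0.765 FPKM in knockdown and 7.09 ± 0.861 FPKM in mock libraries, and the fibrillar sum was 1.68 ± 0.406 FPKM in knockdown and 1.67 ± 0.0692 FPKM in mock libraries (SD, n = 3 each). The ratio of the sums was 2.62, 2.54 and 3.14 in knockdown libraries 1, 2 and 3, against 4.42, 3.82 and 4.45 in mock libraries. The groups did not overlap, and for this measure knockdown library 2 lay with the other knockdown libraries. COL18A1 made up 70.6 ± 5.79% of the basement membrane sum in knockdown and 77.0 ± 6.33% in mock libraries. Without COL18A1 and COL15A1, which share a structure and differ from type IV collagen, the ratio was 0.773, 0.895 and 0.737 in knockdown libraries, against 0.800, 1.15 and 0.927 in mock libraries, so the groups overlapped and type IV chains did not exceed the fibrillar sum on average in either group.

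**Figure D4:**
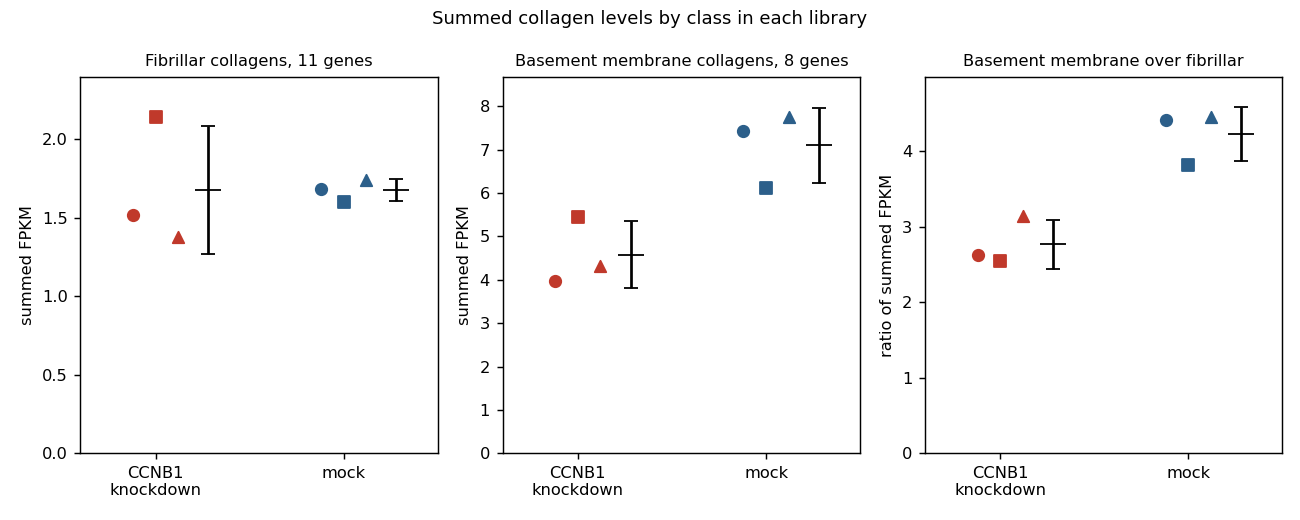
Summed FPKM of the fibrillar collagens (left), of the basement membrane collagens (middle) and their ratio (right) in each library, with knockdown libraries in red and mock libraries in blue. Circles, squares and triangles are libraries 1, 2 and 3, and the black bar is the mean ± SD (n = 3). The ratio lies between 2.54 and 3.14 in knockdown and between 3.82 and 4.45 in mock libraries.

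Of the remaining collagens, COL6A1 and COL6A2 were the most abundant per length. They lie in tandem on chromosome 21, 93046 bases apart. COL6A2 was at 57.3, 116 and 75.7 CPM in knockdown libraries, against 125, 101 and 109.7 CPM in mock libraries. COL6A1 was at 35.1, 76.5 and 43.3 CPM in knockdown libraries, against 78.2, 62.4 and 73.3 CPM in mock libraries. Both had knockdown library 2 inside the mock range and knockdown libraries 1 and 3 below it, with adjusted p-values of 0.402 and 0.414 in edgeR, and of 0.0119 and 0.00506 without library 2. The ratio of COL6A2 to COL6A1 in FPKM was 1.62 ± 0.118 in knockdown and 1.56 ± 0.0630 in mock libraries (SD, n = 3 each), a difference smaller than the spread between libraries.

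The FACIT collagen COL12A1 (ENSG00000111799, chromosome 6 from 75084326 to 75206051, minus strand, GRCh38), whose promoter window is printed above, encodes type XII collagen, which sits on the surface of type I fibrils. It was at 54.5, 26.2 and 44.3 CPM in knockdown libraries, against 26.0, 26.2 and 24.9 CPM in mock libraries. Knockdown library 2 was at the level of the mock libraries, and knockdown libraries 1 and 3 were well above it. The log2 fold change was 0.70 (SE 0.23, adjusted p = 0.205 in edgeR). Without knockdown library 2 it was 0.94 (adjusted p = 0.00166). With all libraries the groups were apart by very little, since knockdown library 2 was at 26.22 CPM and mock library 2 at 26.18 CPM. COL16A1, another FACIT collagen, averaged 1.98 ± 0.403 CPM in knockdown and 1.38 ± 0.201 CPM in mock libraries, and COL7A1 averaged 4.72 ± 0.324 CPM in knockdown and 4.19 ± 0.478 CPM in mock libraries (SD, n = 3 each).

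The transmembrane collagens had log2 fold changes below 0. COL13A1 (ENSG00000197467, chromosome 10 from 69801867 to 69964275, plus strand, GRCh38), a collagen of cell adhesion sites and the neuromuscular junction, was at 11.2, 23.4 and 8.44 CPM in knockdown libraries, against 22.8, 26.9 and 30.2 CPM in mock libraries. Knockdown library 2 lay just above the lowest mock library and the other knockdown libraries far below it. The log2 fold change was -0.89 (SE 0.32, adjusted p = 0.236 in edgeR). Without knockdown library 2 it was -1.44 (adjusted p = 0.00124). COL17A1, a hemidesmosome collagen of epithelia, was at 11.03, 7.28 and 9.35 CPM in knockdown libraries, against 11.9, 13.9 and 12.2 CPM in mock libraries. Here knockdown library 2 was the lowest of all 6 libraries, and the groups did not overlap (log2 fold change -0.46, SE 0.18, adjusted p = 0.275 in edgeR).

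**Figure D5:**
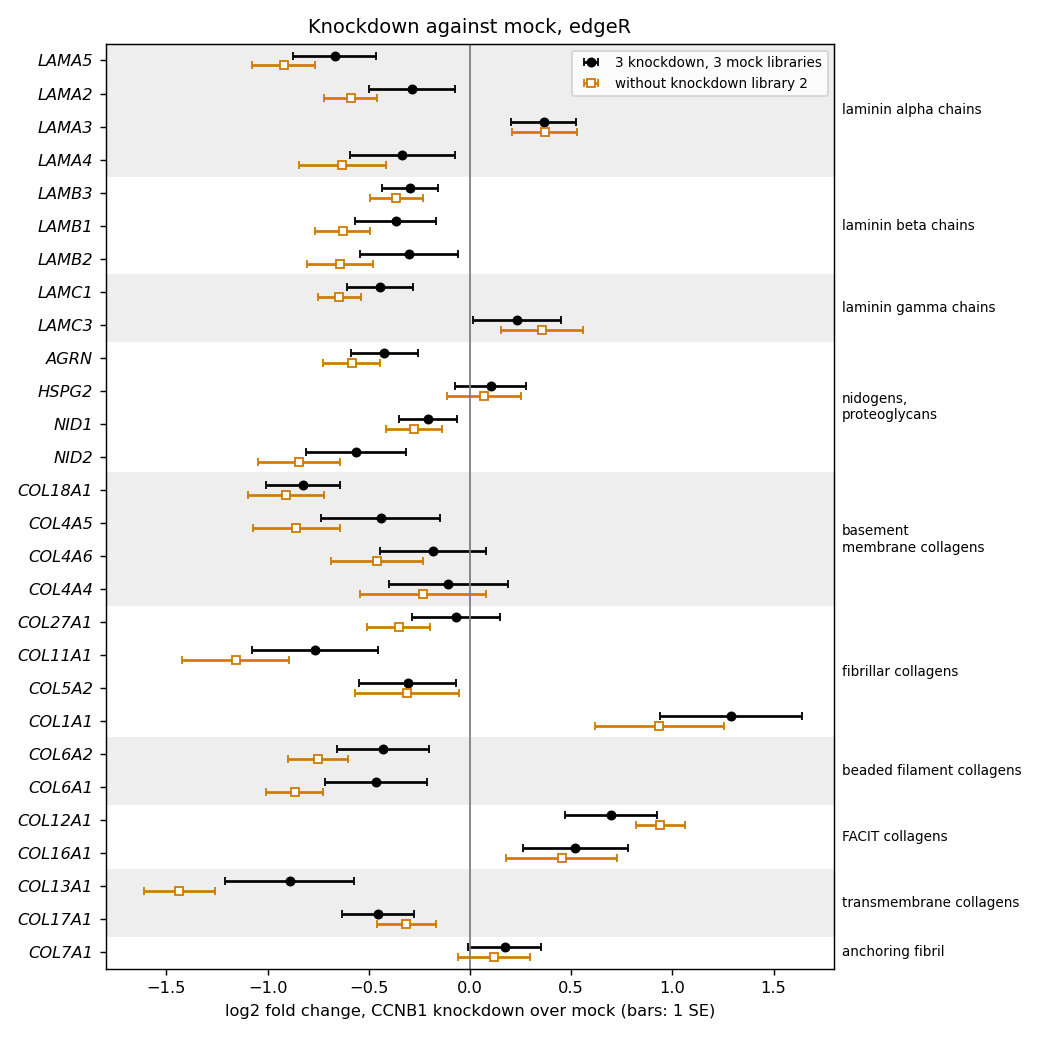
Log2 fold change of CCNB1 knockdown over mock for expressed members, grouped by class, from edgeR with all 6 libraries (black circles) and without knockdown library 2 (open orange squares). Bars are 1 SE. COL13A1 moves from -0.89 to -1.44 and COL12A1 from 0.70 to 0.94 when library 2 is left out, while LAMA3 stays at 0.36 and 0.37.

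A heptamer, GTACTAT, that an earlier look at these data had picked out in the 3′ untranslated regions of genes with lower counts in the knockdown, was absent from the longest annotated 3′ untranslated region of all 29 expressed members. Of the 13175 tested genes searched, 891 carried it, or 6.76%. At that share few carriers would be found among 29 genes, so their absence is not read as a trait of the family. The members that carried it, COL25A1, COL28A1, COL4A2 and COL4A3, were all below 1 CPM.

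Genes that make, finish and bind these matrix proteins were read from the same test, and 0 passed edgeR's threshold in any of the 4 lists, while DESeq2 called COLGALT2 and MATN2 higher (1.2% of all genes) and 4 receptors lower (2.05% of all genes). Without knockdown library 2, edgeR called 9 receptors lower and 1 higher, 7 modification genes lower and 2 higher, 2 processing genes lower and 0 higher, and 3 other components lower and 3 higher, against 7.58% of all genes lower and 6.24% higher. Among the 24 genes of collagen modification, folding and secretion, 20 had a log2 fold change below 0, with a median of -0.15, and an unadjusted p under 0.05 in edgeR was found for 3 lower and 2 higher genes, where 6.88% of all genes were lower and 8.14% higher at that level. P3H1 and FKBP10, a prolyl 3-hydroxylase and a chaperone of procollagen in the endoplasmic reticulum, averaged 32.3 ± 4.67 and 145 ± 35.2 CPM in knockdown libraries, against 45.1 ± 5.87 and 199 ± 23.9 CPM in mock libraries. COLGALT2, which adds galactose to collagen hydroxylysine, lay on the other side at 6.71 ± 0.947 CPM in knockdown and 3.98 ± 0.319 CPM in mock libraries (log2 fold change 0.75, SE 0.18, adjusted p = 0.125 in edgeR and 0.0309 in DESeq2). P3H2, a second prolyl 3-hydroxylase, averaged 16.4 ± 1.66 CPM in knockdown and 11.9 ± 0.121 CPM in mock libraries. Of the 13 tested genes of collagen processing and crosslinking, 7 were below 0 and 6 above, with a median of -0.09, and 3 lower (6.88% of all genes) and 1 higher (8.14% of all genes) had an unadjusted p under 0.05 in edgeR. LOXL1, a crosslinking oxidase, averaged 18.2 ± 4.43 CPM in knockdown and 28.5 ± 5.97 CPM in mock libraries, and TGM2, a transglutaminase, averaged 21.9 ± 3.90 CPM in knockdown and 15.2 ± 1.88 CPM in mock libraries. PCOLCE, which enhances removal of the procollagen C-propeptide, averaged 21.7 ± 4.68 CPM in knockdown and 29.6 ± 2.54 CPM in mock libraries, and ADAMTS3, which removes N-propeptides, averaged 14.1 ± 3.57 CPM in knockdown and 19.6 ± 2.16 CPM in mock libraries (SD, n = 3 each).

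Of the 18 tested receptors of collagen and laminin, 12 had a log2 fold change below 0, with a median of -0.30, and 7 of them had an unadjusted p under 0.05 in edgeR (6.88% of all genes), against 0 on the higher side (8.14% of all genes). The laminin-binding integrin chain ITGA6 was at 377, 411 and 307 CPM in knockdown libraries, against 598, 689.7 and 634 CPM in mock libraries, with no overlap (log2 fold change -0.81, SE 0.14, adjusted p = 0.0899 in edgeR and 7.98e-05 in DESeq2). ITGA3, the other main alpha chain for epithelial laminin, averaged 777 ± 292 CPM in knockdown and 1308 ± 174 CPM in mock libraries. Their common partner ITGB1 averaged 730.2 ± 265 CPM in knockdown and 1411 ± 36.9 CPM in mock libraries, and the heparan sulphate proteoglycan SDC4 averaged 89.4 ± 24.8 CPM in knockdown and 149.8 ± 9.79 CPM in mock libraries (SD, n = 3 each). DESeq2 called these 4 genes lower. They were named for their small p. On the other side, 6 receptors had a log2 fold change above 0, among them the laminin receptors ITGB4 (0.13), BCAM (0.27) and RPSA (0.19). The 17 tested other components of basement membranes split into 11 below 0 and 6 above, with a median of -0.19, and 1 lower (6.88% of all genes) and 3 higher (8.14% of all genes) had an unadjusted p under 0.05 in edgeR. FREM2, a protein of the embryonic basement membrane under the epidermis, averaged 4.28 ± 1.08 CPM in knockdown and 6.44 ± 0.673 CPM in mock libraries. NTN4, a netrin that binds laminin gamma chains, averaged 11.2 ± 1.33 CPM in knockdown and 8.19 ± 0.255 CPM in mock libraries. FBLN1, the gene of fibulin-1, averaged 31.0 ± 2.98 CPM in knockdown and 38.4 ± 6.08 CPM in mock libraries, and MATN2, the gene of matrilin-2, averaged 6.86 ± 1.17 CPM in knockdown and 2.97 ± 0.381 CPM in mock libraries (adjusted p = 0.0848 in edgeR).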

How the data were processed

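The authors deposited 1 table of counts per gene and 1 of FPKM, per the file headers. The submitters' processing notes name bcl2fastq (2.20), HISAT2 (2.1.0), featureCounts (2.0.3) and DESeq2, with build GRCh38.p13. How strand and reads with several positions were treated is not given in the sources used here. The deposited FPKM was each count over gene length and library total (implied lengths spread by at most 3.62e-09 bases). The 60 members, the classes and the gene lists were chosen with earlier results of these data known.

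Samples were grouped by their titles, and 0 columns of other samples were present. All pairs of libraries differed beyond sampling noise, the lowest chi-square over its degrees of freedom being 14.2. The test was edgeR 4.0.16 (R 4.3.3) with filterByExpr, TMM scaling and the quasi-likelihood F test over 17349 genes, Benjamini-Hochberg adjustment and a threshold of 0.05. The biological coefficient of variation was 17.6%. CPM is TMM-scaled, and 3 counts correspond to 0.094 to 0.106 CPM, a floor that covers counting error only. SE was taken as the log2 fold change over the root of F. DESeq2 1.42.0, other scalings and filters, a replicate block and leaving out each library were alternatives. The fits were tested on simulated counts.

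The rule for named genes took CCNB1, every expressed member, library values for expressed members with an unadjusted p under 0.05 and for the 12 highest by FPKM, and up to 4 genes per pathway list with the smallest p and at least 5 CPM in the higher group. Some items that the rule covers are not reported here. VIM and genes at or near 0 were named after their values were seen. GENCODE release 29 gave the positions of the 52 members whose exon length matched the deposited length to within 0.5 bases. Promoter windows came from RefSeq. Python 3.11.15, pandas 2.3.3 and matplotlib 3.10.9 were used.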

Additional observations from a re-analysis of the deposited data

How the results depend on the processing

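Of the expressed members, 20 to 22 were lower when single libraries were left out, against 22 with all libraries. Over all refits of single members, 288 values kept direction and call, 25 gained a call and 6 turned the sign. When single libraries were left out, the log2 fold change of COL27A1 ran from -0.35 to 0.0696, that of COL4A4 from -0.29 to 0.0948, that of COL4A6 from -0.46 to 0.0158 and that of HSPG2 from -0.0226 to 0.302. The sign of COL27A1 turned without knockdown library 1 (0.00318), knockdown library 3 or mock library 3 (0.00371), that of COL4A4 without mock library 1, that of COL4A6 without knockdown library 1 and that of HSPG2 without mock library 3. The count of genes past the threshold, 4, was 564 with DESeq2, 2 with library size alone as scaling and 1077 without the filter on low counts. It was 1 to 2453 when single libraries were left out, with 2453 reached without knockdown library 2. The count of members past it, 0, was 3 with DESeq2, 7 without the filter, and 0 to 15 when single libraries were left out, with 15 reached without knockdown library 2. The cause was not tested.

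With replicate number as a block, 162 genes and 0 members passed, and in the pathway lists ITGA2, ITGA6 and ITGB1 passed as lower and MATN2 as higher. Libraries of the same number did not clearly deviate together, with correlations of -0.189, 0.111 and 0.067 for numbers 1, 2 and 3. Not every library correlated best with its own number. Since each group of 3 was centred on its own mean, these correlations constrain each other and cannot exclude a pairing. Whether the numbers pair the libraries is not known.

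The count of expressed members, 29, was 16 with a mean of at least 1 FPKM, since FPKM also divides by gene length. The ratio of basement membrane to fibrillar collagens, 2.77 in knockdown and 4.23 in mock libraries, changed with its definition. It was 2.26 in knockdown and 3.40 in mock libraries in CPM, and 1.69 in knockdown and 2.05 in mock without the highest member of each class. It was 76.3 in knockdown and 96.6 in mock with laminins, nidogens, HSPG2 and AGRN added, and 0.802 in knockdown and 0.960 in mock without COL15A1 and COL18A1. When single libraries were left out it ran from 2.58 to 2.88 in knockdown and from 4.12 to 4.43 in mock libraries. Members below about 0.1 CPM rest on a few counts and allow no statement on a difference.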
